A study of Mus musculus with 9 samples.

Results

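Gene-to-gene contacts are interactions whose anchors lie at the ends of different genes. A listed interaction was taken as a member when its anchor midpoints were at least 10 kb apart on one of chromosomes 1 to 19, 1 anchor lay within 5 kb of an end of a protein-coding gene, the other lay within 5 kb of an end of another gene, and no gene was shared by both anchors. Of the 4477867 interactions used from 10 tables, 222977 were members. Another 1163981 had a gene end at 1 anchor, 4859 had a gene shared by both anchors and 3086050 had none.

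The contacts were measured by HiChIP, in which crosslinked chromatin is cut (here with MboI), ligated and immunoprecipitated, so that a read pair records 2 segments of DNA that were close together at the targeted protein or mark. The cells were live thymocytes sorted as double positive for CD4 and CD8, a stage before T cells choose either lineage. They came from C57BL/6J mice (BL6), NOD/ShiLtJ mice (NOD), a strain that develops autoimmune diabetes, and (NOD/ShiLtJ X C57BL/6) F1 mice. The labels give no age, sex or number of pooled animals. The antibody was against Smc1, a subunit of the cohesin ring, or H3K27ac, a histone acetylation found at active promoters and enhancers. Smc1 had 2 technical libraries of 1 biological replicate in each strain, H3K27ac had 2 biological replicates in each strain, and F1 had 1 Smc1 library read on both genomes. P-values over Smc1 libraries therefore measure a spread that may be technical. The 4 samples taken as H3K27ac carry Smc1 in their titles and H3K27ac in the antibody field. Their extraction protocol names the Smc1 antibody alone. The field was followed, and every comparison of antibodies rests on it. Replicate numbers follow the titles; the deposited NOD Smc1 tables carry other numbers in their names.

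Cohesin extrudes chromatin into loops that are commonly halted at sites bound by the zinc finger protein CTCF. Active genes can also be brought near each other or near enhancers, and such contacts carry acetylated histones. Genes that lie side by side are joined more often than distant genes in any such assay, since contact frequency falls with distance.

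The used interactions held 381002 to 2620621 read pairs per library. The H3K27ac libraries were smaller than the BL6 and NOD Smc1 libraries, at 381002 to 1203733 against 1484541 to 2620621, and the F1 library held 765174 by BL6 mapping. The H3K27ac replicate 1 libraries of both strains stood apart, with 1.65% (BL6) and 1.25% (NOD) of interactions on chromosome 17, against 4.8% and 4.77% in replicate 2, and with 9.72% and 11.5% on chromosome 7, against 5.83% and 5.85%. Reads of NOD mice were mapped to the NOD genome, with coordinates then shifted to BL6, so strain and mapping genome cannot be told apart. No table holds an interaction of fewer than 2 read pairs or with a q-value above 0.05. A gene pair that is not listed was thus under that limit, which is not a measured 0. In sums and fits it counted as 0.

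Start regions of some joined genes are shown, although most gene-to-gene contacts had no promoter under either anchor. Those shown lie upstream of the gene in RefSeq (GRCm38.p6), shortened where a gene body begins, and are written 5' to 3' on the gene's strand. Ctcf, Cd5, Cd3e and Rmnd5a are shown because an anchor of a gene-to-gene contact of that gene overlapped the 250 bases before its RefSeq start in all 4 H3K27ac libraries. That was so in 2 Smc1 libraries for Ctcf and in 0 for Cd5, Cd3e and Rmnd5a. Cyp11a1 and Il4ra are shown because such an anchor was found in all 4 Smc1 libraries and in 2 H3K27ac libraries. Pnmal2 is shown for the capitals, which mark AGGGGGCG, the core letters of the CTCF motif. All other letters are lower case. Such an anchor overlapped the Pnmal2 region in 0 Smc1 libraries and in 2 H3K27ac libraries. The regions lie at chr8:105636288-105636473 (plus strand), chr19:10739027-10739224 (minus strand), chr9:45009664-45009861 (minus strand), chr6:71440638-71440887 (minus strand), chr9:57997774-57998023 (plus strand), chr7:125552021-125552270 (plus strand) and chr7:16944432-16944681 (plus strand).
Ctcf: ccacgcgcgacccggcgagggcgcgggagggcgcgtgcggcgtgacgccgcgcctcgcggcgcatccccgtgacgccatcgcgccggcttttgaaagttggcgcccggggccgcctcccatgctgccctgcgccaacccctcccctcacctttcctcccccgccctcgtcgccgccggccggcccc
Cd5: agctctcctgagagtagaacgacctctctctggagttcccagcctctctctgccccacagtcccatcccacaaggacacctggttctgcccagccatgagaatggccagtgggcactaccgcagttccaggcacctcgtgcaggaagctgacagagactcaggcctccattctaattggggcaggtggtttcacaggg
Cd3e: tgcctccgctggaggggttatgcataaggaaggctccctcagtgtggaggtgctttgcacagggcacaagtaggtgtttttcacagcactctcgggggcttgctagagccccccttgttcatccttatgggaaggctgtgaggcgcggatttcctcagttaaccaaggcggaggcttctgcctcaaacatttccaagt
Rmnd5a: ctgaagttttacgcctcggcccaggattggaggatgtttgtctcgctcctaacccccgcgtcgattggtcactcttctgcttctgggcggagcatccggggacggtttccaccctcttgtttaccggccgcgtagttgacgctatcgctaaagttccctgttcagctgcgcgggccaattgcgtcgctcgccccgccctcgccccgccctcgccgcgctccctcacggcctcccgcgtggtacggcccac
Cyp11a1: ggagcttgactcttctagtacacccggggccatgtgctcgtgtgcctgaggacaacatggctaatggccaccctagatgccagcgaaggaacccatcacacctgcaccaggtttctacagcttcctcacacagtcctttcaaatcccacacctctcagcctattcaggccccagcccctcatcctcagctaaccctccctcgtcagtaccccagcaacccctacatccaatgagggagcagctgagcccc
Il4ra: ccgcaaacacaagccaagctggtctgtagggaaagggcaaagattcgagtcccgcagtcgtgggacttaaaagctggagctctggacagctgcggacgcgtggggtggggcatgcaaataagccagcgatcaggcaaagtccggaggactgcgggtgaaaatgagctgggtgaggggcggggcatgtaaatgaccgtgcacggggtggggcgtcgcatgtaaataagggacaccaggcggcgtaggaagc
Pnmal2: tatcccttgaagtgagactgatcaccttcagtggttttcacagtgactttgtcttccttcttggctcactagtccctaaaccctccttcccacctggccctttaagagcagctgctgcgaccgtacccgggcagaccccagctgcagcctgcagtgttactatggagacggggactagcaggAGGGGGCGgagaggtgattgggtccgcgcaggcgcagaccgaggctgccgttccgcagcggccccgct

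Letters of 3 motifs were searched on both strands of the 250 bases before each start: AGGGGGCG (CTCF), AAGATGGC (YY1, a factor tied to promoter loops) and CCGGAAGT (the ETS family, which includes Ets1 of T cells). The AGGGGGCG letters were in 8.6% of the 16456 genes with a promoter in the table. They were in 11.7% of the 1475 such genes that took part in a gene pair listed in all 4 Smc1 libraries, and in 10.3% of 165 for H3K27ac. The YY1 letters were in 1.79%, 2.1% and 3.03%, and the ETS letters in 4.37%, 4.34% and 4.24%, in the same order. Median GC content was 56%, 58.4% and 60.4%. A match of letters is a description and not a bound site.

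Gene-to-gene contacts took a larger share of the H3K27ac interactions than of the Smc1 interactions. In Smc1 the share was 4.78% and 4.34% in BL6 and 5.23% and 3.96% in NOD. In H3K27ac it was 6.18% and 6.26% in BL6 and 6.37% and 6.74% in NOD. Every H3K27ac library lay above every Smc1 library, with means of 6.39% ± 0.247 (SD, n = 4) and 4.58% ± 0.547 (SD, n = 4). The difference of 1.81 percentage points had an exact two-sided permutation p of 0.0286, the smallest that 4 libraries against 4 allow, and 0.0667 after Benjamini-Hochberg adjustment over 7 tests, so it did not pass 0.05 once adjusted. With the technical Smc1 libraries of a strain averaged the exact permutation p was 0.0667, again the smallest possible. The F1 library, with 4.72% by BL6 mapping and 4.73% by NOD mapping, lay within the Smc1 range.

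A larger share of all anchors also lay at gene ends with H3K27ac. That share counts the anchors of gene-to-gene contacts too, so it is not independent of the gene-to-gene share. Whether it accounts for the difference between antibodies was not tested. Of all anchors counted by interaction, 20.3% to 22.4% lay within 5 kb of a gene end in H3K27ac and 15.7% to 18.5% in the 4 Smc1 libraries. If the anchors of an interaction were at gene ends independently of each other, the gene-to-gene share would be the square of that figure. The observed share was 1.35 to 1.5 times that product in H3K27ac and 1.52 to 1.61 times in Smc1. The observed share thus exceeded the product in all 8 libraries, and the excess was not larger with H3K27ac. The product takes 1 figure for the whole genome, while mean Smc1 shares ran from 1.93% on chromosome 18 to 8.86% on chromosome 7. Whether gene ends were joined more often than local gene density would give was not tested.

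**Figure D1:**
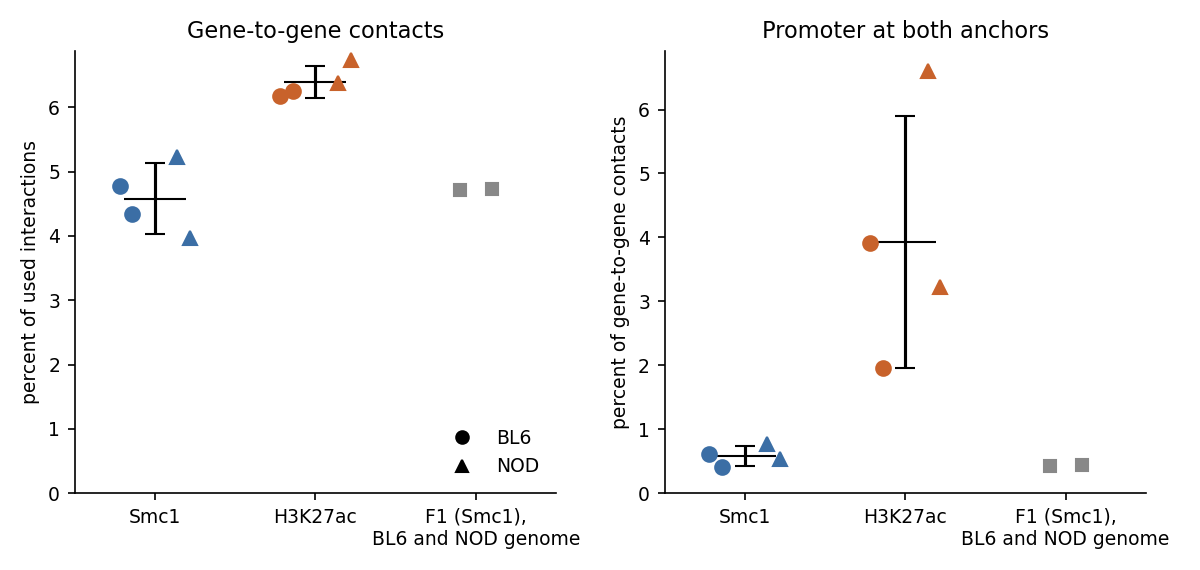
Left, gene-to-gene contacts as a percent of used interactions; right, the percent of gene-to-gene contacts with a promoter under both anchors. Points are libraries, bars are mean ± SD of 4 libraries, and squares are the F1 library on each genome; all H3K27ac points lie above all Smc1 points in both plots.

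The antibodies also differed in whether the anchors lay on promoters themselves. A promoter was taken as the 250 bases before a RefSeq start, known for 16456 of the 20661 genes and for none on chromosome 18. Genes without one, such as Cd6, Cd8b1 and Pnmal1, could not count. Both anchors overlapped a promoter in 0.609%, 0.415%, 0.776% and 0.527% of the gene-to-gene contacts of Smc1 (BL6 1, BL6 2, NOD 1 and NOD 2). The corresponding shares in H3K27ac were 3.92%, 1.95%, 6.61% and 3.22%. The lowest H3K27ac library lay above the highest Smc1 library, and the means were 3.93% ± 1.97 (SD, n = 4) and 0.582% ± 0.152 (SD, n = 4). The difference of 3.34 points had an exact two-sided permutation p of 0.0286, the smallest possible; this measure was added after the data had been seen. Without any 1 Smc1 library the exact permutation p was 0.0571 at differences of 3.29 to 3.41 points. With the technical Smc1 libraries averaged it was 0.133.

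Promoters lay under 13.3% to 21.6% of the anchors of gene-to-gene contacts in H3K27ac and under 6.08% to 8.44% in Smc1. The share with promoters at both anchors was 1.1 to 1.42 times the product in H3K27ac and 1.09 to 1.18 times in Smc1, and these ranges overlapped. Anchors were of similar width, with medians of 1160 to 1407 bases in H3K27ac and 1266 to 1415 in Smc1. In each H3K27ac library the promoter-to-promoter share was higher among better supported contacts, a comparison with no test. Among contacts of 2 read pairs it was 2.26%, 1.2%, 4.93% and 1.28%, and among those of 3 or more it was 5.89%, 2.74%, 9.99% and 5.53%. In Smc1 the figures were 0.599%, 0.417%, 0.701% and 0.51% at 2 read pairs and 0.619%, 0.412%, 0.887% and 0.55% at 3 or more. Smc1 values moved little between the classes, in both directions.

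A looser measure, a known start site within 5 kb of each anchor, gave overlapping groups. The share was 28.1% ± 2.61 (SD, n = 4) in H3K27ac and 25.3% ± 0.877 (SD, n = 4) in Smc1, a difference of 2.75 points with an exact permutation p of 0.114. H3K27ac replicate 1 gave 30% and 30.7%, and replicate 2 gave 26.2% and 25.5%, beside 24.3% to 26.1% in Smc1. At a window of 2.5 kb the difference was 6.19 points and the groups no longer overlapped (exact permutation p = 0.0286). Contacts with a start site at 1 anchor only made up 45.7% to 47.2% of members in all 8 libraries.

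Gene-to-gene contacts were shorter and better supported than other interactions of the same library. The median distance between anchor midpoints was 456 to 755 kb for members and 547 to 811 kb for all other interactions, and it was lower for members in 8 of 8 libraries. The mean difference of log10 medians was -0.0747 (exact paired permutation p = 0.00781, adjusted 0.0273). At least 3 read pairs supported 44.3% ± 5.44 (SD, n = 8) of members and 34.7% ± 4.36 (SD, n = 8) of other interactions, higher in 8 of 8 libraries (exact paired permutation p = 0.00781, adjusted 0.0273). Averaged within 6 distance bins, the gap of 9.65 points fell to 3.17 points (63.7% against 60.5%; exact paired permutation p = 0.00781).

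The gene-to-gene share was highest between 50 and 100 kb for both antibodies and lower beyond. In that bin it was 9.35% in H3K27ac and 7.42% in Smc1 on average, and beyond 1000 kb it was 5.86% and 3.68%. The antibodies did not overlap in any of the 5 bins from 50 kb upward (exact permutation p = 0.0286 in each bin, adjusted 0.0343 over 6 bins). At 10 to 50 kb they did, at 7.02% and 5.86% (exact permutation p = 0.114).

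**Figure D2:**
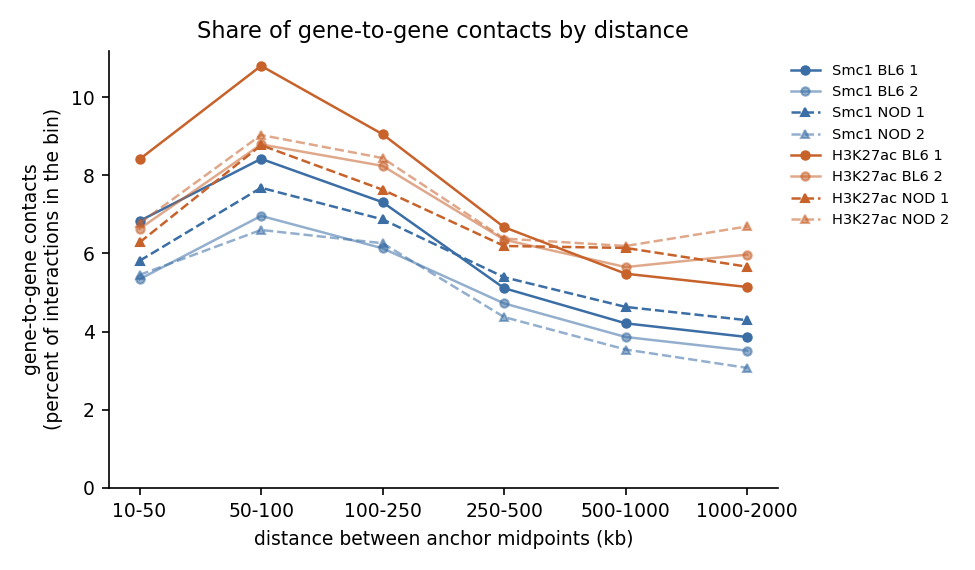
Gene-to-gene contacts as a percent of the interactions in each distance bin (kb between anchor midpoints), 1 line per library, colour by antibody and line style by strain. The H3K27ac lines lie above the Smc1 lines in every bin from 50 kb on and mix with them at 10 to 50 kb.

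With H3K27ac, chromosomes 19, 17 and 7 had the largest shares. On chromosome 19 the mean was 14.3% in H3K27ac and 7.07% in Smc1, on chromosome 17 it was 11.6% and 6.36%, and on chromosome 7 it was 10.5% and 8.86%. Chromosome 18 had 3.46% and 1.93%, and chromosome 12 had 3.17% and 2.2%. The H3K27ac mean was higher on 19 of 19 chromosomes, and the libraries did not overlap on 16. On chromosomes 7, 9 and 11 the groups overlapped. Without chromosomes 17 and 19, where H3K27ac replicate 1 listed few interactions, the genome-wide difference was 1.69 points (6.13% against 4.44%, exact permutation p = 0.0286).

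**Figure D3:**
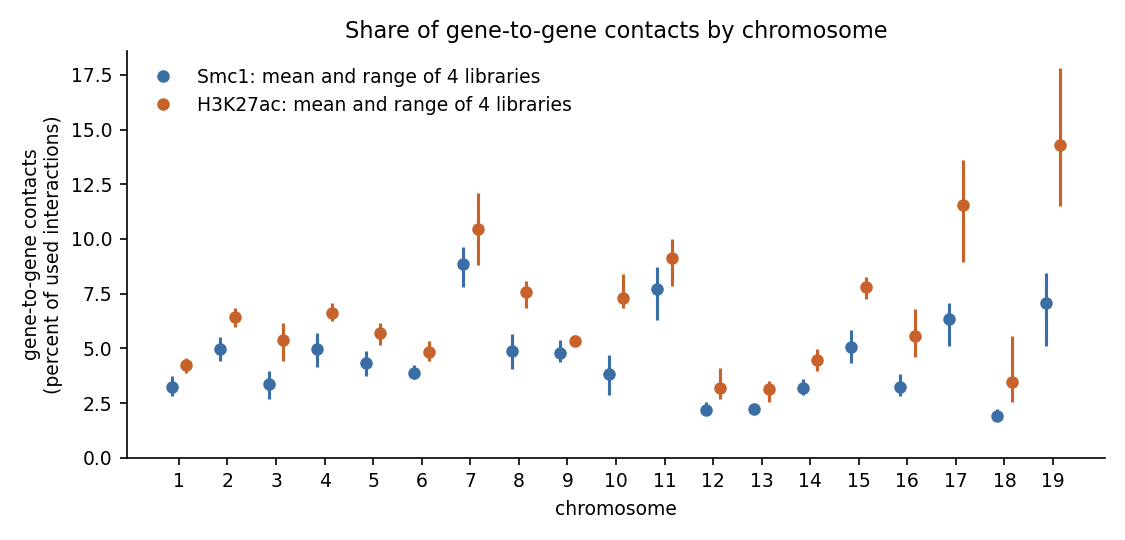
Gene-to-gene contacts as a percent of used interactions on each chromosome; points are means and lines the range of 4 libraries of each antibody. The H3K27ac mean is higher on every chromosome, and the ranges overlap on chromosomes 7, 9 and 11.

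Most gene-to-gene contacts skipped other genes. The nearest joined genes had no other protein-coding gene wholly between them in 8.56%, 8.28%, 9.36% and 8.73% of Smc1 members and in 7.87%, 5.76%, 8.43% and 6.16% of H3K27ac members. Means were 8.73% and 7.06%, and the difference of -1.68 points had an exact permutation p of 0.0571. Within 10 to 100 kb its direction turned (1.2 points, exact permutation p = 0.571). The median number of genes between the joined genes was 8 to 9 in Smc1 and 9 to 13 in H3K27ac.

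Strain made no detectable difference to these shares, in a design that could not reach 0.05. In Smc1 the gene-to-gene share was 4.56% ± 0.315 (SD, n = 2) in BL6 and 4.59% ± 0.893 (SD, n = 2) in NOD, and the libraries overlapped (exact permutation p = 1). In H3K27ac it was 6.22% ± 0.0621 (SD, n = 2) in BL6 and 6.55% ± 0.262 (SD, n = 2) in NOD, without overlap (exact permutation p = 0.333, the smallest that 2 against 2 allow). The sign of NOD minus BL6 turned in 6 of 12 alternatives in Smc1 and in 1 of 12 in H3K27ac. That 1 was the limit to 10 to 100 kb, which gave -1.01 points in H3K27ac and -0.547 in Smc1.

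Individual gene pairs were sampled sparsely. The 10 tables joined 219163 different gene pairs, involving 19317 of 20661 protein-coding genes. Of the 156198 pairs seen with Smc1, 76.6% were in 1 library and 1349 (0.864%) in all 4. Of the 93051 pairs seen with H3K27ac, 87.3% were in 1 library and 124 (0.133%) in all 4. Technical Smc1 libraries of BL6 shared 11831 pairs, 22.9% of the first and 18.8% of the second, and those of NOD shared 7038, 13.4% and 20.5%. The H3K27ac replicates of BL6 shared 2964 pairs, 16.4% and 6.21%. Each such share also reflects library size. Mapped to either genome, the single F1 library gave 21198 shared pairs, 90.5% and 88.6%. Only 28 pairs were listed in all 8 BL6 and NOD libraries, 2.08% of the pairs in all 4 Smc1 libraries and 22.6% of those in all 4 H3K27ac libraries.

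The gene pairs of highest level with Smc1 came from varied gene classes. Levels are read pairs scaled to a library of 1000000 used read pairs (CPM). Pnmal1-Ccdc8 on chromosome 7 led, with 44.4 ± 19.2 CPM (SD, n = 4); PNMA proteins are related to retrotransposon Gag. Odf3-Cox8b, a sperm tail protein gene and a mitochondrial respiratory subunit gene, had 32 ± 6.19 CPM (SD, n = 4). Mrps11-Aen, a mitochondrial ribosome gene and a nuclease gene, had 29.5 ± 8.91 CPM (SD, n = 4). Gimap8-Gimap3, of the lymphocyte GTPase cluster, had 29.4 ± 11.7 CPM (SD, n = 4). Then came Btnl9-Olfr1393 (25.9), Urb2-Galnt2 (24), Nsmce1-Il4ra (23.7) and Ubl7-Cyp11a1 (22.5). With H3K27ac, Nsmce1-Il4ra was listed in 3 libraries and had 50.9 ± 55.7 CPM (SD, n = 4). It did not pass the test between antibodies (edgeR quasi-likelihood test, adjusted p = 0.943). The other pairs named here had lower means with H3K27ac than with Smc1. Nsmce1 belongs to the SMC5/6 complex and Il4ra encodes the interleukin-4 receptor chain. Il4ra and the Gimap genes are the genes of this group best known in lymphocytes.

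With H3K27ac the pairs of highest level included several genes of T cell surface receptors. Ripor1-Ctcf had 123 ± 82.1 CPM (SD, n = 4) and Cd5-Cd6 had 116 ± 63.4 CPM (SD, n = 4). CD5 and CD6 are related scavenger receptors that tune T cell receptor signalling. Nsmce1-Il21r (Il21r encodes the interleukin-21 receptor) had 78.2 ± 66.5 CPM (SD, n = 4) and Cd8b1-Rmnd5a had 45.4 ± 55.1 CPM (SD, n = 4). Iscu-Selplg had 34.4, Il27ra-Cc2d1a 26.4 and Jade2-Cdkn2aipnl 23.3 CPM. Selplg encodes the ligand of P-selectin and Il27ra a chain of the interleukin-27 receptor. The SDs show that levels of these pairs varied widely among the 4 libraries. Of the pairs named here, only Ripor1-Ctcf and Cd5-Cd6 passed the test between antibodies given below.

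**Figure D4:**
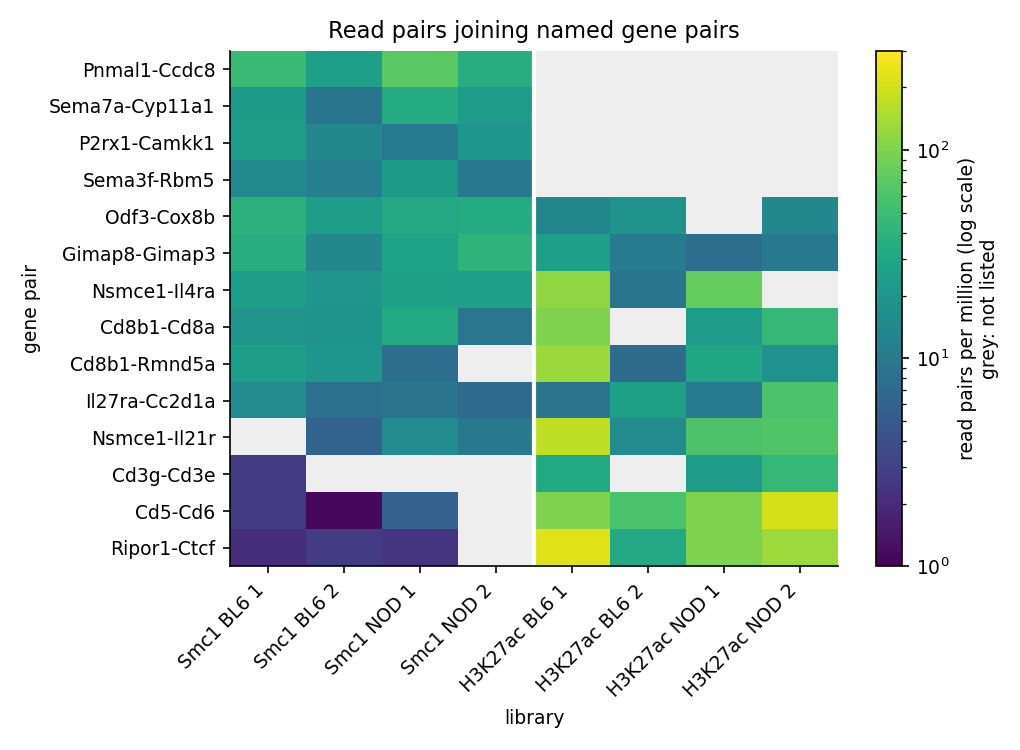
CPM (log colour scale) for 14 gene pairs named in the text, by library; grey cells are pairs not listed in that library. The top 4 pairs are grey in all H3K27ac libraries, and Cd5-Cd6 and Ripor1-Ctcf, at the bottom, are dark or grey in Smc1 and bright in H3K27ac.

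The question which gene pairs differ between antibodies was put to read pairs summed per gene pair, with strain as a term (edgeR quasi-likelihood test, Benjamini-Hochberg adjustment). Of 610 pairs tested, 2 were higher with H3K27ac (0.328%) and 7 were lower (1.15%), at an adjusted p under 0.05. The 2 that rose joined Ripor1 to Ctcf and Cd5 to Cd6. The 7 that fell joined Pnmal1 or Pnmal2 to Ccdc8 or Ppp5c (4 pairs), Sema7a to Cyp11a1, P2rx1 to Camkk1 and Sema3f to Rbm5. Log2 differences over the 610 pairs had a median of -0.49. Scaling by gene-to-gene read pairs moved the median to -0.86, over 446 pairs, with 2 higher and 7 lower again.

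Ripor1-Ctcf joined Ripor1 to the gene of CTCF across 14.3 kb on chromosome 8. Smc1 read pairs were 4, 7, 4 and not listed in BL6 1, BL6 2, NOD 1 and NOD 2. In the same order H3K27ac read pairs were 101, 38, 38 and 65. Each H3K27ac library was above each Smc1 library. The log2 difference was 4.78 ± 1.21 (SE; edgeR adjusted p = 0.00929). The strongest H3K27ac contact, of 64 read pairs, joined chr8:105622535-105625323, just past the end of Ripor1, to chr8:105633513-105638398, which covers the Ctcf start region shown above. The strongest Smc1 contact, of 4 read pairs, joined chr8:105594986-105597364 inside Ripor1 to chr8:105680995-105682074 inside Ctcf near its other end. The strongest contact of each antibody thus lay on other segments of the same genes. The call was kept without BL6 H3K27ac replicate 2 and lost without any other single library, at edgeR adjusted p-values of 0.096 to 0.285.

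Cd5-Cd6 spanned 50.3 kb on chromosome 19. Smc1 read pairs were 5, 3, 10 and not listed, and H3K27ac read pairs were 44, 71, 38 and 103. The log2 difference was 4.43 ± 1.17 (SE; edgeR adjusted p = 0.0116). Without any 1 Smc1 library, or without either NOD H3K27ac library, the edgeR adjusted p was 0.207 to 0.285. The strongest H3K27ac contact (19 read pairs, BL6 2) joined chr19:10734663-10736787 inside Cd5, 2187 bases from its start, to chr19:10827092-10831572 at the end of Cd6 farther from Cd5. In F1, an Smc1 library, neither this pair nor Ripor1-Ctcf was listed on either genome. That library held fewer read pairs than the other Smc1 libraries. Among the Smc1 pairs of highest level named above, it also did not list Mrps11-Aen and Ubl7-Cyp11a1, while it listed the others. Its lack of a listing thus says little.

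The pairs that fell were listed by Smc1 alone or nearly so. Pnmal1-Ccdc8 had 92, 65, 115 and 52 Smc1 read pairs and was in no H3K27ac table (edgeR adjusted p = 0.000128). The strongest contact, of 47 read pairs, joined chr7:16949528-16954532 at Pnmal1 to chr7:17000959-17004320, between Ccdc8 and Ppp5c. The pairs Pnmal2-Ccdc8 (edgeR adjusted p = 0.000362), Pnmal1-Ppp5c (0.00497) and Pnmal2-Ppp5c (0.0116) draw on overlapping windows and are not separate contacts. Ppp5c encodes a serine/threonine phosphatase. In H3K27ac, Pnmal1-Ppp5c was listed once with 4 read pairs, in NOD 2, and Pnmal2-Ppp5c once with 4, in BL6 1. F1 listed Pnmal1-Ccdc8 with 26 read pairs on each genome. Pnmal1 and Pnmal2 are members of 1 gene family, and whether short reads were split between them was not tested.

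Sema7a-Cyp11a1 joined a GPI-anchored semaphorin gene to the gene of the enzyme that opens steroid synthesis. It had 43, 24, 55 and 35 Smc1 read pairs, 43 and 49 in F1 on the BL6 and NOD genome, and was in no H3K27ac table at the window of 5 kb (edgeR adjusted p = 0.00497). At a window of 10 kb the call was lost (edgeR adjusted p = 0.182). Of its Smc1 read pairs, 87.9% had a known start site of some gene, not necessarily these 2, within 5 kb of each anchor. P2rx1-Camkk1 joined an ATP-gated channel gene to a calcium/calmodulin kinase kinase gene that lies 0.842 kb away. Its Smc1 read pairs were 45, 37, 18 and 30, with none listed by H3K27ac (edgeR adjusted p = 0.0116). F1 listed it on the NOD genome alone, with 7. Sema3f-Rbm5, a secreted semaphorin gene and an RNA-binding protein gene, had 29, 31, 37 and 15, with none listed by H3K27ac at 5 kb (edgeR adjusted p = 0.0228). At 10 kb this call was lost too (edgeR adjusted p = 0.239). Every Smc1 library listed these pairs and no H3K27ac library did at 5 kb, so they passed the expression filter through Smc1 alone. Such groups cannot overlap, and the lack of overlap adds nothing to the calls.

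Only Pnmal1-Ccdc8 and Pnmal2-Ccdc8 kept their call in 13 of 16 other settings each; the other 7 kept it in 3 to 10 of 15 or 16, and none changed direction. Within BL6 alone or NOD alone no pair passed the edgeR test (121 of 896 and 62 of 280 had an unadjusted p under 0.05). DESeq2 called 3 higher and 28 lower of the same 610.

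Gene pairs that joined genes of the T cell lists were few. With both genes in the lists, and passing over pairs near one already named, Smc1 gave 8 pairs and H3K27ac 6. Cd8b1-Cd8a, the genes of the CD8 coreceptor chains, had 37, 50, 54 and 14 Smc1 read pairs and 44, not listed, 9 and 22 in H3K27ac. The log2 difference between antibodies was -0.31 ± 1.09 (SE; edgeR adjusted p = 0.902). Cd8b1-Rmnd5a, which reaches past Cd8a to a ubiquitin ligase subunit gene, had 47, 52, 13 and not listed in Smc1 and 56, 9, 11 and 9 in H3K27ac. Cd3g-Cd3e and Cd3d-Cd3e, of the CD3 signalling chains, had 14, not listed, 9 and 22, and 14, not listed, 9 and 17 read pairs in H3K27ac. Smc1 listed each of these in 1 library with 5. In H3K27ac the strongest contact of both, of 17 read pairs in NOD 2, was the same. Its first anchor covered the starts of Cd3g and Cd3d, so the 2 pairs are largely not separate contacts. Of the H3K27ac read pairs of Cd3d-Cd3e, 100% had a known start site of some gene within 5 kb of each anchor. No start of Cd8b1 or Cd6 was in the promoter table, so that share was not given for their pairs.

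The remaining T cell pairs had at most 8 read pairs in a library. Cd4-Cd27, over 344 kb, had 5 and 8 in H3K27ac BL6 1 and NOD 2. Carmil2-Nfatc3 had 2 in Smc1 BL6 1 and 3 in each of H3K27ac BL6 2 and NOD 1. Ikzf3-Ccr7, Ctla4-Icos, Ptpn6-Cd27 and Runx3-Id3 were each at 2 or 3 where listed. At that count no comparison was possible.

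Summed over all partners, genes of the T cell receptor list carried more gene-to-gene read pairs with H3K27ac. The 35 genes had a median of 17.8 CPM in H3K27ac and 7.79 in Smc1, beside 5.89 and 4.6 over all 20661 genes. Among tested pairs with a gene of that list, 12 of 19 had a positive H3K27ac minus Smc1 log2 difference, 1 was called, and the median was 1.28. Over all 610 tested pairs, 256 were positive, 9 were called and the median was -0.49, and the next counts are to be read against these too. The 30 T cell transcription factor genes in the table had medians of 7.8 and 5.4 CPM, and the 26 double-positive stage genes 5.54 and 5.23. The 16 cohesin and CTCF genes in the table had 7.41 and 2.09, and of 6 tested pairs 6 were positive and 1 was called; Ctcf was in the called pair. The 42 type 1 diabetes candidate genes had 8.09 and 7.01, with 5 of 5 tested pairs positive and 0 called. The lists were chosen with results of these data known, so these counts are descriptions.

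Single genes show the spread. Cd4, the other coreceptor gene, had 39, 7, 52 and 14 gene-to-gene read pairs in Smc1 and 118, 88, 19 and 59 in the smaller H3K27ac libraries, or 16 and 127 CPM on average. Cd6 had 25, 6, 26 and 2 against 57, 106, 41 and 134, or 8.11 and 149 CPM. Il21r had 8, 21, 45 and 17 against 109, 22, 46 and 66, or 12.7 and 130 CPM. Not all T cell genes leaned this way. Cd247, the gene of the zeta chain, had 22 CPM in Smc1 and 12 in H3K27ac, Zbtb16 had 17.4 and 8.75, and Zbtb7b, of CD4 lineage choice, had 19.5 and 11.1. Ccr7 had 26.6 and 20, and Bcl2l1, a survival gene, 40.5 and 39.6. Some of these means hide uneven values. For Bcl2l1 the H3K27ac read pairs were 54 and 37 in BL6, 2 in NOD 1 and not listed in NOD 2. For Zbtb7b they were 27 in BL6 2 and 11 in NOD 2, with no listing in replicate 1 of either strain. Cd247, Zbtb16 and Ccr7 were listed in all 4 H3K27ac libraries.

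**Figure D5:**
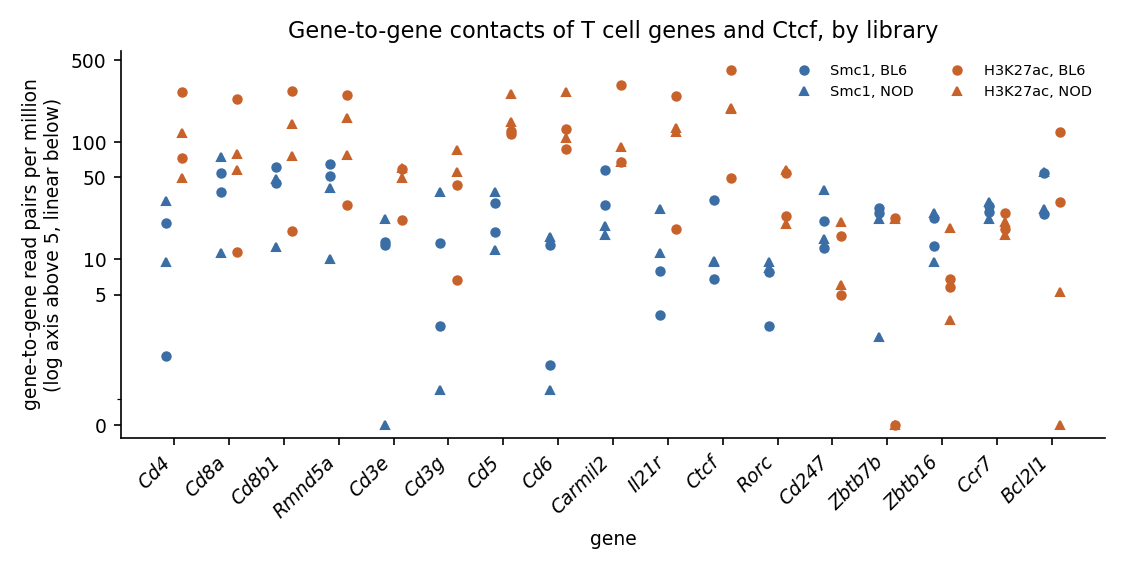
Gene-to-gene CPM for 17 genes of the gene lists, 1 point per library, colour by antibody and shape by strain; the axis is logarithmic above 5 and linear below, and 0 means not listed. Cd4, Cd5, Cd6 and Ctcf lie higher with H3K27ac, and Cd247, Zbtb16, Ccr7 and Bcl2l1 mix or lie lower.

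Genes that mark other cells also had gene-to-gene contacts. Of double-positive thymocyte markers, 8 of 16 had such a contact in all 4 H3K27ac libraries (median 14.7 CPM). For B cell markers this was 6 of 10 (14.2), for thymic epithelium 5 of 9 (12.3), for natural killer cells 3 of 9 (7.22), for erythroid cells 2 of 8 in the table (2.72) and for myeloid and dendritic cells 1 of 12 (7.02). Over all genes it was 30.2%. The share of markers was thus no larger for double-positive thymocytes than for B cells or thymic epithelium, and whether other cells added to the libraries was not tested.

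Some genes had several partners. With Smc1, Mst1r on chromosome 9, a receptor tyrosine kinase gene, had 8 partner genes in pairs listed in all 4 libraries, among them Traip, Ip6k1, Gmppb, Rnf123 and Mst1, its ligand's gene. Ms4a10 (which was joined to Cd5, among others), Vwa7 in the major histocompatibility region and Gatad2a had 7 each, and Qprt had 6. With H3K27ac, Ripor1 had 4 partners (Ctcf, Carmil2, Tsnaxip1 and Lcat). Med16, a Mediator subunit gene, Cbarp, Tnnt1 and Camkv had 3 each. Since neighbouring genes share windows, partners are not independent contacts.

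The longest pairs listed in all 4 libraries rested on few read pairs. With Smc1 these were Lcn9-Rxra across 1851 kb, Zfp184-Trim38 across 1818 kb and Slc5a5-Cherp across 1568 kb, at 2 to 4 read pairs per library. Rxra encodes a retinoid receptor. With H3K27ac they were Brsk1-Zfp787 across 1415 kb, Zfp469-Dpep1 across 914 kb and Mgat5-Dars across 875 kb, at 2 to 4 read pairs. Brsk1-Zfp787 was in no Smc1 table.

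NOD and BL6 gene pairs were compared within each antibody. In Smc1, 0 of 791 pairs were higher and 0 lower in NOD (0%; edgeR adjusted p under 0.05), 31 were under 0.05 before adjustment, and by DESeq2 12 were called, all higher in NOD. In H3K27ac, 0 of 76 were higher and 0 lower (0%), 6 were under 0.05 before adjustment, and by DESeq2 4 were called, all higher in NOD. A strain difference that differed between antibodies was called by edgeR in 0 of 1971 pairs (0% either way, 106 at an unadjusted p under 0.05), and by DESeq2 in 2. Log2 differences as large as 12.63 ± 5 (SE, Ralb-Tmem185b) were not called, so the lack of calls does not show equal strain differences. This pair was listed only in the BL6 Smc1 and the NOD H3K27ac libraries. The size of its difference thus rests on missing listings that entered as 0. Dropping 1 BL6 Smc1 library gave 8 or 12 calls, all higher in NOD, and dropping H3K27ac BL6 replicate 2 gave 7.

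The pairs with the smallest strain p-values are named here after their values were seen. Bspry-Alad on chromosome 4, with Alad encoding an enzyme of heme synthesis, was in neither BL6 Smc1 table, while NOD had 72 and 115 (edgeR adjusted p = 0.141). H3K27ac listed it with 8 in BL6 2 and with 26 and 15 in NOD, and F1 with 3 on either genome. Hdhd3-Alad had the same Smc1 read pairs. The anchor of the strongest Smc1 contact lay over Hdhd3 and not over Bspry, so in Smc1 these are not separate contacts. Sfi1-Eif4enif1 on chromosome 11 was in no BL6 table, and had 51 and 77 read pairs in NOD Smc1 and 39 and 35 in NOD H3K27ac (edgeR adjusted p = 0.141 and 0.242). F1 listed the pair on neither genome. The bodies of these 2 genes overlap. In both antibodies the strongest contact had both anchors over Sfi1. Its second anchor lay 4156 (Smc1) and 4993 (H3K27ac) bases from the Eif4enif1 start, so it can equally be read as a contact within Sfi1. Klra4-Klra1, of the Ly49 receptor genes of natural killer cells, had 31 and 50 in NOD Smc1 and 11 and 13 in NOD H3K27ac, was not listed in BL6, and had 6 and 11 in F1 on the BL6 and NOD genome. The Klra genes are close copies of one another, and reads of 38 bases could be assigned to more than 1. Whether they were was not tested.

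Over both antibodies, 26 gene pairs were listed in all 4 NOD libraries and in no BL6 library, and 77 in all 4 BL6 libraries and in no NOD library. Each was 15% of the pairs listed in all 4 libraries of that strain (173 in NOD and 513 in BL6). Of the 26 NOD pairs, 5 joined Klra genes with each other, 14 reached 10 read pairs in a library and 9 were listed in F1. Of the 77 BL6 pairs, 0 joined Klra genes, 16 reached 10 read pairs and 14 were listed in F1. Among the BL6 pairs, chosen after their values were seen, Card9-Egfl7 had 4, 13, 5 and 12 read pairs, Prr5l-Cd44 had 2, 4, 2 and 2, and H2-Ab1-Btnl2 of the major histocompatibility region had 4, 5, 3 and 3 (Smc1 BL6 1 and 2, then H3K27ac BL6 1 and 2). CD44 is an adhesion receptor of T cells and H2-Ab1 a class II chain.

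F1 cells carry both genomes, and the same F1 reads were mapped to each. Gene pairs were compared where the larger value reached 20 read pairs, after adding 5 CPM to both. Of 61 such pairs, 19 (31.1%) were more than 1.5-fold higher with NOD mapping and 1 (1.64%) with BL6 mapping. As this is 1 library, there is no test. Of the 61, 14 were listed on NOD alone and 1 on BL6 alone. Of the 19, 9 joined a Ugt1a gene to Mroh2a, each not listed on BL6 and with 25 read pairs on NOD. These genes overlap, and the 9 are not separate contacts. Also listed on NOD alone were C130026I21Rik-Sp140 with 105 read pairs, A530032D15Rik-Sp110 with 49 and A530032D15Rik-Gm2427 with 29. Several of the 14 pairs on NOD alone thus share a gene, and they are not 14 separate contacts. Klra8-Klra9 had 11 and 22 read pairs, Chst10-Nms 11 and 21, Lztr1-Lrrc74b 8 and 21, and LOC100504180-Duxf3 was listed on NOD alone with 20. Nat8f5-Nat8, of an acetyltransferase family, was listed on BL6 alone with 22. The BL6 and NOD Smc1 libraries listed neither Ugt1a1-Mroh2a nor Nat8f5-Nat8. At a minimum of 10 read pairs, 42 pairs were higher on NOD and 26 on BL6, of 399.

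Gene families added a small share of the members. Joined genes with the same letters at the start of their symbols made up 3.12%, 3.56%, 3.13% and 4.86% of Smc1 members and 2.38%, 1.34%, 3.16% and 1.36% of H3K27ac members. The ranges overlapped.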

How the data were processed

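HiChIP read pairs from 9 libraries of sorted mouse thymocytes were deposited by the authors as 10 tables of interactions. The values are counts of read pairs per interaction and of reads per anchor, not normalized, per the file headers. A p-value and a q-value for each interaction were deposited too. HiC-Pro, MACS, Juicer 1.7.6 and the build GRCm38 are listed in the submitters' processing notes without their roles.

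Interactions were assigned to protein-coding genes of RefSeq (GRCm38.p6, 20661 genes). Read pairs were summed per gene pair and tested with edgeR 4.0.16 (quasi-likelihood, TMM, default expression filter, library size from used read pairs, Benjamini-Hochberg), with DESeq2 1.42.0 as an alternative. A pair absent from a table entered as 0. The SE of a log2 difference was taken as its size divided by the square root of the edgeR F statistic. Shares were compared by exact permutation over libraries. The fits were tested on simulated data. Named pairs were, per antibody, the 8 of highest level in all 4 libraries, the 10 within T cell lists, the 3 longest and the 5 genes with most partners; per comparison, up to 8 called pairs each way; and 5 F1 pairs each way. A pair among those of highest H3K27ac level is not reported here. Pairs within 100 kb of one taken and clone-type names gave way. The members and lists were chosen with earlier results of these data known. Samples were grouped by strain and antibody fields. Windows of 2.5 and 10 kb, at least 3 read pairs, distance limits, weights and left-out libraries were tried. Chromosomes X and Y were not analysed here.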

Additional observations from a re-analysis of the deposited data

How the results depend on the processing

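The larger gene-to-gene share with H3K27ac kept its direction in 19 of 19 alternatives and an exact permutation p under 0.05 in 17; it was 1.57 points (p = 0.0571) at 10 to 100 kb and 1.81 points (p = 0.0667) with technical Smc1 libraries averaged. The promoter-to-promoter difference ranged from 2.45 to 4 points with 1 library left out; with Smc1 libraries averaged it was 3.34 points (exact permutation p = 0.133). The start-to-start difference was 6.19 points at 2.5 kb, 5.37 at 3 or more read pairs, 4.19 weighted by read pairs and 1.89 to 3.62 with 1 library left out. The neighbour difference was -2.12 points at 10 kb, 1.2 at 10 to 100 kb and -2.13 to -1.25 with 1 library left out. The Smc1 strain difference turned to -0.0281 points up to 1 Mb, -0.547 at 10 to 100 kb, -0.126 weighted by read pairs and -0.0425 with chromosomes weighted equally, with a range of -0.594 to 0.668 when 1 library was left out; the H3K27ac strain difference turned to -1.01 at 10 to 100 kb. Median distance and read support kept their direction in 13 of 13 alternatives each, with exact paired permutation p-values of 0.00781 to 0.0312.

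Counts of gene pairs by antibody, 9 in the report, were 31 by DESeq2, 0 without an expression filter, 43 at 10 kb, 0 in BL6 alone, 0 in NOD alone and 2 to 11 with 1 library left out. Smc1 strain counts were 12 by DESeq2, 4 at 2.5 kb and 0 to 12 with 1 library left out; H3K27ac strain counts were 4 by DESeq2, 2 at 3 or more read pairs and 0 to 7 with 1 library left out. The difference of strain effects gave 2 by DESeq2 and 0 to 2 with 1 library left out. With the replicate number as a block, 4 Smc1 pairs and 0 H3K27ac pairs were called; same-numbered libraries correlated at 0.0292 over 791 gene pairs in Smc1 and 0.205 over 76 in H3K27ac, and with 2 numbers the pairing could not be established. The F1 count, 20 in the report, was 68 at 10 or more read pairs and 41 at 10 kb. The cause of these changes was not tested. The fits in the report tested 76 to 1971 gene pairs, of 219163 listed. Alternatives on chromosomes, q-value, distance bins and promoters were chosen after seeing the data.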
